A study of Mus musculus with 8 samples.

Results

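The transcripts described came from 10 genes of the mouse mitochondrial genome: mt-Nd1, mt-Nd2, mt-Nd3, mt-Nd4, mt-Nd5, mt-Cytb, mt-Co1, mt-Co2, mt-Co3 and mt-Atp6, called the members from here on. They were found by symbol in the gene list of the count matrices by a rule that uses symbols alone, and all 10 occur among its 32285 genes. They are 10 of the 13 protein-coding genes that the annotation places on chromosome M. The other 3, mt-Nd4l, mt-Atp8 and mt-Nd6, are given for comparison. Counts were unique molecular identifiers (UMIs), each of which tags 1 captured RNA molecule, from single nuclei of the ventricular-subventricular zone (V-SVZ), the stem cell niche along the lateral ventricles. There were 8 libraries, 1 per mouse, with 4 mice labelled Tsc2 wt/wt and 4 labelled Tsc2 mut/mut, of both sexes and at postnatal day 90. Every mouse carried a Cre-dependent tdTomato reporter driven by the CAG promoter at Rosa26, and 100000 tdTomato-positive nuclei per mouse were sorted with doublets gated out. In Tsc2 mut/mut mice both alleles of Tsc2, which encodes a subunit of the complex that restrains mTORC1, were floxed. The study delivered Cre either by electroporation of a CAG-CRE plasmid in neonates or by Nestin-CreERT2 with tamoxifen, and the route behind these libraries is not given in the sources used here. Only cells that met Cre, and their progeny, would carry the recombined alleles.

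Mitochondria keep a small genome of their own, from which the core subunits of the respiratory chain are made inside the organelle. mt-Nd1 to mt-Nd5 encode membrane subunits of complex I, which takes electrons from NADH and pumps protons. mt-Cytb encodes the cytochrome b of complex III, mt-Co1 to mt-Co3 the core of complex IV, where oxygen is reduced, and mt-Atp6 the proton channel subunit of ATP synthase. Each strand is transcribed as 1 long precursor, which is cut at the transfer RNAs into messengers that are then polyadenylated, so unequal levels of these messengers can arise after transcription has begun. The transcripts lie in the matrix of the organelle in the cytoplasm and not in the nucleus, and in a preparation of nuclei they are often read as a measure of cytoplasmic material. Apart from the 3 further genes of chromosome M named above, the other subunits of the chain are encoded in the nucleus.

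The ends of the gene models are shown because a 3′ library is primed from the poly(A) tail, which for most members is added at or near these ends. On GRCm38 with the GENCODE M21 gene models, the 10 members lie on the plus strand of chromosome M, at chrM:2751-3707 (mt-Nd1), chrM:3914-4951 (mt-Nd2), chrM:5328-6872 (mt-Co1), chrM:7013-7696 (mt-Co2), chrM:7927-8607 (mt-Atp6), chrM:8607-9390 (mt-Co3), chrM:9459-9806 (mt-Nd3), chrM:10167-11544 (mt-Nd4), chrM:11742-13565 (mt-Nd5) and chrM:14145-15288 (mt-Cytb). None of them has an intron. The last 24 bases of 4 members are given 5′ to 3′, with the letters of the final codon in capitals.
mt-Nd2: ctagccccccaactaattaccTAG
mt-Co3: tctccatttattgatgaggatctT
mt-Nd4: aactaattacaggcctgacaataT
mt-Atp6: ctatatctacatgataatacaTAA
mt-Nd2 and mt-Atp6 are among the 7 members whose gene model ends in a full stop codon. mt-Co3 and mt-Nd4 are among the 3, with mt-Cytb, whose stop codon is incomplete in the genome and is filled in by the added tail. Base 8607 closes mt-Atp6 and opens mt-Co3 in these models, so the exact end of the mt-Atp6 messenger is uncertain. Between the end of mt-Nd5 (13565) and the start of mt-Cytb (14145) the only protein-coding model is mt-Nd6, on the minus strand (chrM:13552-14070). The mt-Nd5 messenger can thus run past its model, and tags beyond the model would not be counted for it.

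Runs of A inside a transcript are a second place where an oligo(dT) primer can anneal. Of the 10 members, 5 hold a run of at least 6 A on the sense strand (mt-Nd1, mt-Nd2, mt-Nd4, mt-Nd5 and mt-Co1) and 5 hold none. The runs of the pair of complex I members that differed most between the genotypes are printed with 10 bases on each side and the run in capitals.
mt-Nd2, chrM:4042-4069: actaatcaacAAAAAAAAcccacgatca
mt-Nd2, chrM:4304-4329: cttacatgacAAAAAAttgctcccct
mt-Nd2, chrM:4716-4741: cagaacttatAAAAAAcaactgtcta
mt-Nd4, chrM:10217-10243: atcaagccctAAAAAAAcctgaacaaa
mt-Nd4, chrM:10408-10434: aaaaccacctAAAAAAAgataataacg
The longest run, of 8 A, is in mt-Nd2. The part of these runs in the counts was not tested, since the matrices hold no read positions. mt-Atp8 overlaps mt-Atp6 and mt-Nd4l overlaps mt-Nd4, and nuclear copies of mitochondrial sequence can share reads with any member, so the split of reads between such neighbours is uncertain.

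Each matrix held 60000 barcodes, a number set by the authors, and from 11182335 to 36773832 UMIs. The 37881 barcodes with at least 300 detected genes were kept (1923 to 10153 per mouse), with a median of 888 to 1324.5 UMIs. Between 6418 and 6677 barcodes of each library also occurred in another library, as did 4090 of the kept ones. In 4 libraries (wt/wt 2 and mut/mut 1, 3 and 4) fewer than 100 barcodes had under 100 genes, which sets 1 control and 3 Tsc2 mut/mut mice against 3 and 1, so the main genotype differences are also given within these 2 kinds of library. Tsc2 itself was at 12.9, 13.1, 11.2 and 13.5 CPM (counts scaled per library to all UMIs) in Tsc2 wt/wt and at 12.9, 11.9, 11.9 and 9.34 in Tsc2 mut/mut. A 3′ tag does not test for a deletion elsewhere in the gene, so these values check no label. The library of mut/mut 4 stood apart: 8 long noncoding RNAs that stay in the nucleus made up 0.186% of its non-mitochondrial UMIs in barcodes with 1000 to under 2000 genes, where the other 7 mice gave 2.45 to 3.57%.

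The 10 members were far from equally abundant, and their order was nearly the same in every mouse. Levels are given as the percentage of the members' summed UMIs, over kept barcodes. The complex IV gene mt-Co3 was highest with 19.4% ± 1.20 (SD, n = 8 mice, 18.1 to 21.0%) and mt-Atp6 followed with 17.5% ± 0.630. mt-Co1 took 15.9% ± 0.987 and mt-Co2 13.7% ± 0.476. mt-Cytb took 10.9% ± 0.490. The genes of complex I were all lower: mt-Nd4 at 6.95% ± 0.333, mt-Nd1 at 6.80% ± 0.114, mt-Nd2 at 5.54% ± 0.457, mt-Nd3 at 2.20% ± 0.116 and mt-Nd5 at 1.04% ± 0.0274. The first and the last were 18.7-fold apart. Neighbours in this order were ordered alike in 8 of 8 mice, except that mt-Atp6 was above mt-Co1 and mt-Nd4 above mt-Nd1 in 6 of 8. The exceptions were all Tsc2 mut/mut mice, and in the 4 Tsc2 wt/wt mice both pairs kept the order given. The 3 genes of complex IV together gave 49.0% ± 1.67, the 5 of complex I 22.5% ± 0.700.

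Per kilobase of transcript the spread was wider, 45.1-fold. On this scale mt-Atp6 (25.7% of the members' UMIs per kilobase) and mt-Co3 (24.8) led, followed by mt-Co2 (20.1), mt-Co1 (10.3) and mt-Cytb (9.55). mt-Nd1 (7.11), mt-Nd3 (6.32), mt-Nd2 (5.34) and mt-Nd4 (5.04) were close to each other, and mt-Nd5, the longest member, was alone at 0.569. mt-Nd3, the shortest member with 348 bases, stood among the other complex I genes on this scale, while mt-Nd5 was the lowest on both scales. How many mt-Nd5 tags fell beyond its gene model was not tested, so its low count may miss part of its messengers. A 3′ assay counts molecules and not fragments, so the scale by molecules is the one that reads as a number of transcripts. Set on the members' scale, the other 3 genes were lower than every member: mt-Nd4l at 0.508%, mt-Atp8 at 0.146% and mt-Nd6, the one protein gene of the minus strand, at 0.0860%. mt-Nd4l and mt-Atp8 overlap the starts of mt-Nd4 and mt-Atp6, so tags of a shared messenger would be counted for the member. How well each messenger was captured was not tested, so these low counts do not read as numbers of transcripts.

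**Figure D1:**
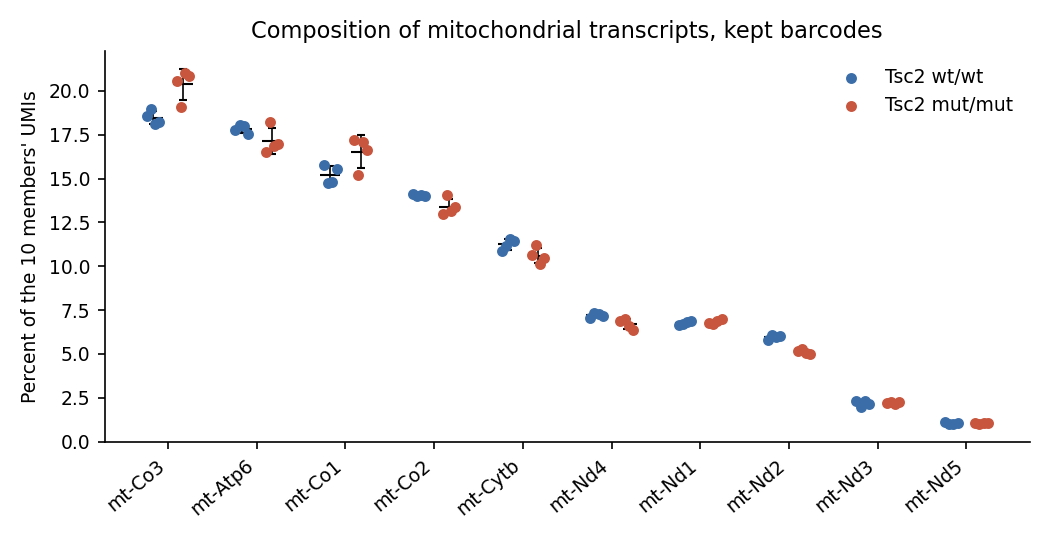
Percentage of the members' summed UMIs taken by each member over kept barcodes (vertical axis), with 1 point per mouse and the mean and SD of each genotype. mt-Co3 leads in all 8 mice and mt-Nd5 is last, and the genotypes do not overlap for mt-Co3, mt-Nd4 and mt-Nd2.

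How much of a barcode's RNA came from the members went with how many genes were detected in it. In barcodes with 100 to under 200 genes, members made up 48.5% ± 0.562 of all UMIs (n = 8, 47.7 to 49.5%). The share was 48.5% ± 2.35 at 200 to under 300 genes and 49.1% ± 3.02 at 300 to under 500 genes. It was 42.7% ± 6.78 at 500 to under 1000 genes, 15.7% ± 6.59 at 1000 to under 2000 and 5.46% ± 0.947 at 2000 or more. Under 500 genes the share was therefore near level. In points, the mice were most alike in the range from 100 to under 200 genes and in that of at least 2000. In the latter the shares were low and ran from 4.24 to 7.50%, so relative to their mean the mice were not alike there.

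Mouse by mouse, the share at 300 to under 500 genes was 52.1, 47.5, 50.8 and 51.7% in Tsc2 wt/wt and 47.0, 52.5, 44.9 and 46.1% in Tsc2 mut/mut. At 1000 to under 2000 genes it was 19.6, 11.0, 24.1 and 21.5% in Tsc2 wt/wt and 9.51, 21.8, 10.0 and 8.33% in Tsc2 mut/mut. The higher range was lower in 8 of 8 mice, by 33.3 points on average (exact two-sided sign-flip permutation test, p = 0.0078, the smallest that 8 mice allow). At equal total UMIs, a barcode rich in members has fewer UMIs left in which other genes can be detected. The member share is therefore not independent of the range, and how much this adds to the difference was not tested. The 4 libraries with few barcodes under 100 genes had the lowest shares in both ranges, wt/wt 2 among them. Between these ranges none of the 10 members' own proportions passed the same test, and mt-Nd1 came nearest with a difference of -0.171 points (exact p = 0.0547). Other ranges were not tested. From 100 to under 200 to 500 to under 1000 genes, mt-Nd2 went from 5.90 to 5.30% and mt-Nd4 from 7.48 to 6.69%. Over the same ranges mt-Co2 went from 13.1 to 14.1% and mt-Atp6 from 16.5 to 17.8%. At 2000 or more genes they were at 5.92, 7.32, 13.2 and 17.1%, in the order named.

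**Figure D2:**
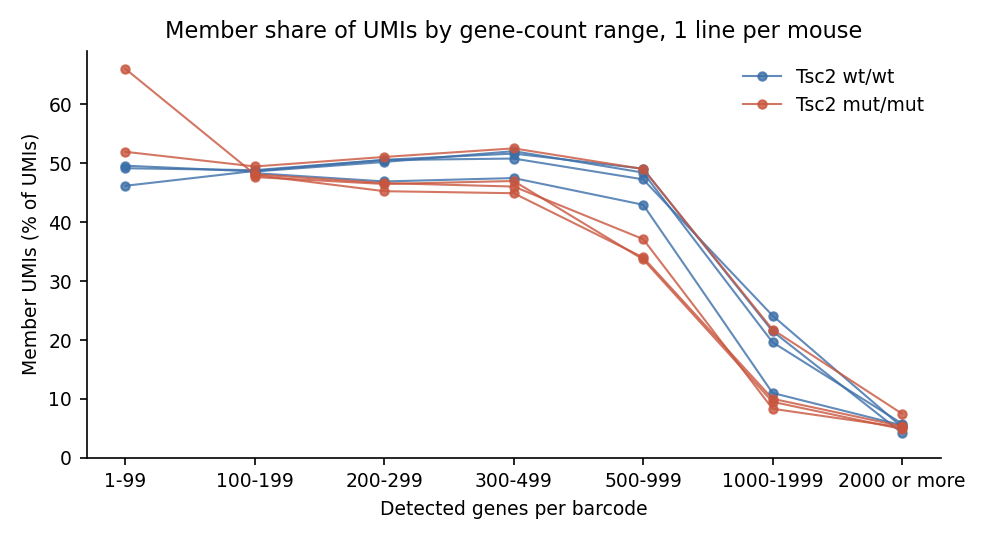
Members' UMIs as a percentage of all UMIs (vertical axis) by the number of genes detected in a barcode (horizontal axis, ranges), with 1 line per mouse and ranges of under 20 barcodes left out. The lines run near 50% under 500 genes and reach 4.24 to 7.50% at 2000 or more, and the high point at 1 to 99 genes is mut/mut 4 with 21 barcodes.

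The 70 nuclear genes that encode the other subunits of complexes I, III and IV and of ATP synthase were followed in the same ranges, as a percentage of non-mitochondrial UMIs. Their sum was 6.44% at 100 to under 200 genes, 6.36% at 300 to under 500, 2.72% at 1000 to under 2000 and 3.23% at 2000 or more. In each of the last 2 ranges it was below the 300 to under 500 range in 7 of 8 mice. The exception was mut/mut 4, where the share was 7.50% at 1000 to under 2000 genes and 8.80% at 2000 or more. The median over mice was 2.33% in each of these 2 ranges. The 8 long noncoding RNAs kept in the nucleus went the other way, from 0.111% at 300 to under 500 genes to 2.50% at 1000 to under 2000 and 2.79% at 2000 or more, and were higher in 8 of 8 mice in both. The genes of mitochondrial transcription and RNA stability, 18 in number, went from 266 CPM of non-mitochondrial UMIs at 100 to under 200 genes to 350 CPM at 2000 or more, so they did not follow the members.

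Among 1615 nuclear genes, those whose level went most closely with the members' share over 48 points (8 mice by 6 ranges) were Ndrg2 (Pearson's r = 0.985), Kif5b (0.984), Rpsa (0.980), St6galnac6 (0.978) and Prxl2b (0.977). Points of 1 mouse share a library, so these values are a description. Ndrg2 is a gene of astrocytes, Kif5b encodes a kinesin motor and Rpsa a ribosomal protein. Ndrg2 went from 2170 CPM of non-mitochondrial UMIs at 100 to under 200 genes to 361 CPM at 2000 or more, and Rpsa from 3974 to 348 CPM. The genes most opposed were Nedd4 (r = -0.971), Ahcyl2 (-0.963), Trpm3 (-0.954), Ddx5 (-0.951) and Mapk4 (-0.950). Trpm3, a cation channel that is abundant in the choroid plexus, went from 132 to 2019 CPM between the same ranges, and Ddx5, a nuclear RNA helicase, from 163 to 497 CPM.

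Kept barcodes were then gated by marker genes, none of them mitochondrial. A barcode belonged to a class where the markers of 1 cell type, and of no other, exceeded the count expected from the library (Poisson tail p under 1e-06, at least 3 markers detected). The expected count was scaled to the barcode's non-mitochondrial UMIs. At equal total UMIs, a barcode rich in members thus has fewer UMIs with which to meet a class. The member share is therefore not independent of the gate, and how much this adds to differences between classes was not tested. The gate took 1611 barcodes as neural stem cell (NSC)/astrocyte, 745 as microglia, 655 as oligodendrocyte, 529 as choroid plexus, 325 as ependymal, 150 as inhibitory neuron or neuroblast, 125 as endothelial and 65 as oligodendrocyte progenitor. A further 33514, 88.5% of kept barcodes, met no class, and 156 that met several were set aside. Of the choroid plexus barcodes 169 came from mut/mut 4. That library had 168 barcodes with at least 1000 genes, of which 7 met no class and 2 were NSC/astrocyte, 5 microglia and 4 oligodendrocyte. In the other mice 56 to 229 such barcodes were NSC/astrocyte. Comparisons of mice in the ranges from 1000 genes upward therefore mix cell types to different degrees. Cells of the microglial and endothelial lineages do not descend from neural stem cells, and their presence among tdTomato-positive nuclei is given as found.

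Members took a much smaller share of UMIs in every gated class than in barcodes of no class. In NSC/astrocyte barcodes the share was 12.9, 9.58, 16.3 and 15.2% in the 4 Tsc2 wt/wt mice and 8.76, 20.1, 8.80 and 30.8% in the 4 Tsc2 mut/mut mice. In barcodes of no class it was 51.5, 46.9, 49.2 and 50.4% and 45.3, 51.9, 43.6 and 45.6%. The pooled share was lower in the class in every mouse, and mut/mut 4 had the smallest distance between the 2 values. The mean difference was -32.7 points for NSC/astrocyte, -32.4 for microglia and -35.3 for oligodendrocyte, each lower in 8 of 8 mice (exact sign-flip permutation test, adjusted p = 0.0078 over 3 classes).

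The classes hold more genes per barcode, so the comparison was repeated within 500 to under 1000 genes. There NSC/astrocyte barcodes had 34.2% members against 46.9% in no class, a difference of -12.6 points (exact adjusted p = 0.0117). Microglia had 18.8% (-28.1 points, exact adjusted p = 0.0117), and oligodendrocytes 15.1% (-32.4 points over the 7 mice with at least 5 barcodes, exact adjusted p = 0.0156). At 1000 to under 2000 genes the differences were -18.5 points for NSC/astrocyte and -20.1 for oligodendrocytes (7 of 7 mice each, exact adjusted p = 0.0234), while microglia, at -16.7 points, were lower in 5 of 8 mice and did not pass (exact adjusted p = 0.0625). Single barcodes varied widely within a class: of the 1611 NSC/astrocyte barcodes, 929 had under 20% members and 260 over 40%, whereas in no class 421 of 33514 had under 20% and 28105 over 40%. Over all kept barcodes 9.21% were under 20% (4.79 to 13.3% per mouse). A single kept barcode, of wt/wt 3, had no member UMI.

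The smaller classes are given over mice with at least 10 such barcodes. Among those present in at least 6 mice, choroid plexus had the lowest share, 8.20% ± 1.68 (n = 7, 6.62 to 11.4%). Oligodendrocyte progenitors had 7.62% over 2 mice, and inhibitory neurons or neuroblasts 9.79% over 4 mice. Ependymal barcodes had 16.4% (n = 7), from 9.43 to 14.1% in 6 mice and 42.3% in mut/mut 4. Endothelial barcodes had 17.8% (n = 6, 12.2 to 31.7%), with mut/mut 4 again the highest. Of the classes present in at least 6 mice, oligodendrocytes (12.7% ± 3.22) and choroid plexus were the only ones in which no mouse exceeded 20%.

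**Figure D3:**
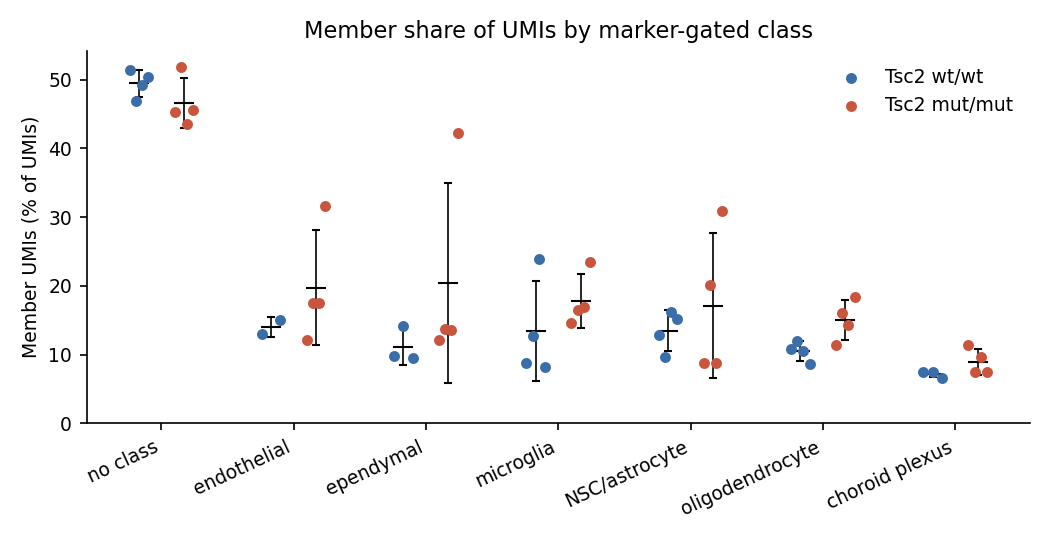
Members' UMIs as a percentage of all UMIs (vertical axis) by marker-gated class, with 1 point per mouse with at least 10 barcodes and the mean and SD of each genotype. No class lies at 43.6 to 51.9%, above every gated class of the same mouse, and mut/mut 4 is the highest point among ependymal, endothelial, NSC/astrocyte and oligodendrocyte barcodes.

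The proportions among the members differed between classes by a few points at most, and in opposite directions for the same gene. They were compared with no class over all depths, without matching the number of genes per barcode. Endothelial barcodes departed farthest from no class in mt-Co1: 13.4% ± 0.585 of the members' UMIs against 16.1% in the same 6 mice, lower in 6 of 6. Their mt-Atp6 was at 19.6% ± 0.907 and their mt-Co2 at 15.2% ± 0.797, against 17.4% and 13.7%, each higher in 6 of 6. mt-Nd1, mt-Nd4 and mt-Nd5 were lower in 6 of 6 and mt-Cytb higher in 6 of 6. These are the cells that line blood vessels, and 10 to 33 barcodes per mouse stand behind each value.

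Choroid plexus epithelium, which secretes cerebrospinal fluid, had a larger proportion of each complex I gene among the members' UMIs, although the members' share of all UMIs was low there. mt-Nd5 was at 1.82, 1.35 and 1.82% in wt/wt 1, 2 and 4 and at 1.52, 2.12, 1.31 and 1.58% in mut/mut 1 to 4. In no class of these 7 mice it ranged from 1.01 to 1.07%, so no choroid plexus value fell within that range. mt-Nd1 (7.62 against 6.81%), mt-Nd2 (6.57 against 5.47%), mt-Nd3 (2.65 against 2.17%), mt-Nd4 (7.63 against 6.88%) and mt-Co3 (20.6 against 19.6%) were also higher in 7 of 7 mice. mt-Cytb (9.85 against 10.8%), mt-Co1 (14.8 against 16.0%), mt-Co2 (12.6 against 13.7%) and mt-Atp6 (16.0 against 17.5%) were lower in 7 of 7.

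Ependymal cells, the ciliated lining of the ventricle, had a smaller proportion of mt-Nd1 among the members' UMIs, the reverse of the choroid plexus. mt-Nd1 was at 4.69, 5.58 and 3.54% in wt/wt 1 to 3 and at 5.99, 5.52, 6.07 and 5.93% in mut/mut 1 to 4, against 6.65 to 6.98% in no class. All 7 ependymal values lay below that range, and the lowest was that of wt/wt 3, with 22 barcodes. mt-Co2 (12.01 against 13.7%) and mt-Nd3 (1.78 against 2.20%) were also lower in 7 of 7 mice, and mt-Nd4 (7.77 against 6.90%) and mt-Co3 (21.5 against 19.6%) higher in 7 of 7. The proportions in ependymal, choroid plexus and endothelial barcodes were not tested, and their widest 95% Wilson half-width in 1 mouse was 0.959 points, for counting error only.

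The larger classes stayed closer to no class. In NSC/astrocyte barcodes 6 of 10 members passed the exact sign-flip permutation test, unadjusted over 10 members, beside 90.2% of 1647 nuclear genes of at least 100 CPM. mt-Co1 was higher by 0.486 points and mt-Co2 and mt-Atp6 lower by -0.286 and -0.272 points, each the same way in 8 of 8 mice (exact p = 0.0078). mt-Nd4 and mt-Co3 were each higher by 0.182 points in 7 of 8 mice, and mt-Nd1 lower by -0.248 points in 7 of 8. In microglia mt-Atp6 was below no class in 8 of 8 mice, by -0.766 points on average, and in oligodendrocytes mt-Co3 was above it (0.849 points) and mt-Nd2 below it (-0.289 points) in 8 of 8. Of the same nuclear genes, 88.2% passed the sign-flip test between microglia and no class and 90.9% between oligodendrocytes and no class, so a difference in a gated class is the rule among genes.

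**Figure D4:**
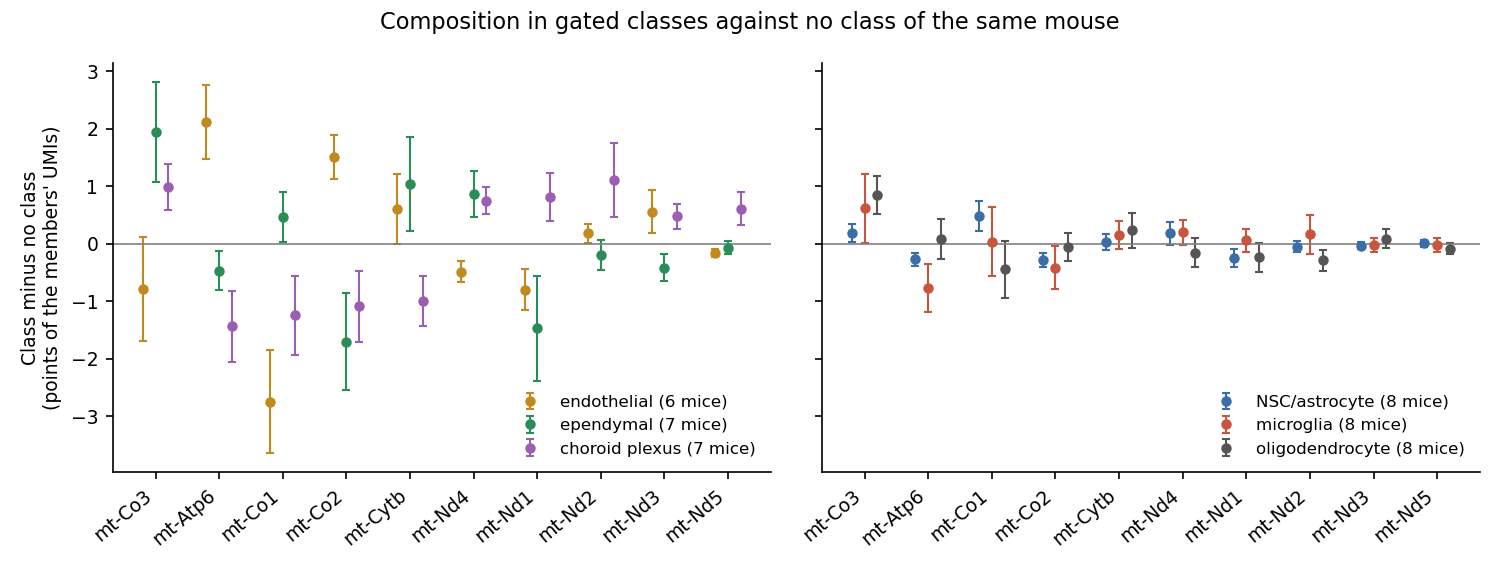
Difference of each member's percentage of the members' UMIs between a gated class and no class of the same mouse (vertical axis, points), as mean and SD over mice with at least 10 barcodes. The left panel holds the classes that departed most, with endothelial mt-Co1 lowest and endothelial mt-Atp6 highest, and the right panel the 3 classes present in all 8 mice.

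Whether loss of Tsc2 went with a different amount of mitochondrial RNA was asked per mouse. The members' share over kept barcodes was 35.5, 38.0, 41.5 and 39.4% in Tsc2 wt/wt and 33.7, 44.3, 35.1 and 38.0% in Tsc2 mut/mut. The ranges overlapped, with mut/mut 2 the highest and mut/mut 1 the lowest of all 8. The difference of -0.812 points did not pass the test (exact two-sided permutation test over the 70 assignments, p = 0.771, where 0.0286 is the smallest possible), and it was -2.42 points among libraries with few barcodes under 100 genes and 5.55 points among the others. Its sign turned without wt/wt 3 (0.164 points), mut/mut 1 (0.544) or mut/mut 3 (0.0966).

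By depth and class the pooled shares overlapped as well. The mean was 48.3% in Tsc2 mut/mut against 48.6% in Tsc2 wt/wt at 100 to under 200 genes (exact permutation p = 0.514), with differences of -0.405 and 0.747 points within the 2 kinds of library. It was 12.4 against 19.1% at 1000 to under 2000 genes (exact p = 0.171), where the difference was -1.73 points in one kind of library and 0.0319 points in the other. NSC/astrocyte barcodes had 17.1 against 13.5% (exact p = 0.629; within kinds 6.55 and 5.35 points) and microglia 17.8 against 13.4% (exact p = 0.343; within kinds 5.63 and 2.83 points). As a median over single barcodes the microglia were at 6.64, 13.3, 13.6 and 6.01% in Tsc2 wt/wt and 14.0, 16.5, 17.4 and 30.1% in Tsc2 mut/mut, a difference of 9.65 points with separate groups, and the NSC/astrocyte difference turned to -2.89 points. For the pooled microglia share wt/wt 3, with 23.9% from 26 barcodes, decided the overlap, and without it the difference was 7.96 points with separate groups. Without mut/mut 4, with 30.8%, the NSC/astrocyte difference was -0.921 points.

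The overlap at most depths rested on mut/mut 2. Without it, each remaining Tsc2 mut/mut mouse was below each Tsc2 wt/wt mouse in no class (-4.68 points) and at 100 to under 200 (-0.692 points), 200 to under 300 (-3.44 points), 300 to under 500 (-4.52 points), 500 to under 1000 (-11.99 points) and 1000 to under 2000 genes (-9.78 points). The 3 remaining mice are those whose libraries held few barcodes under 100 genes, as did wt/wt 2, the lowest control in each of these sets. For these shares the genotype and the kind of library cannot be told apart with the mice left.

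Of the pooled shares by class, that of oligodendrocytes had the smallest p. It was 10.8, 12.04, 10.4 and 8.61% in Tsc2 wt/wt and 11.3, 16.0, 14.3 and 18.3% in Tsc2 mut/mut. Only mut/mut 1 lay within the Tsc2 wt/wt range. The means were 10.5% ± 1.42 and 15.0% ± 2.93 (difference 4.51 points, exact permutation p = 0.0571), and the difference was 2.63 and 6.02 points within the 2 kinds of library. Without mut/mut 1 (5.73 points) or wt/wt 2 (5.03 points) the groups were separate, and without mut/mut 4, whose value rests on 18 barcodes, the difference was 3.41 points (exact p = 0.0857). As medians over single barcodes the groups overlapped, with wt/wt 2 at 11.7% and mut/mut 1 at 11.0%. Set against no class of the same mouse, the class differed between genotypes by 7.42 points (exact p = 0.0571), and for NSC/astrocyte and microglia the values were 6.55 and 7.36 points (exact p = 0.200 for each). The share in no class itself differed by -2.90 points, and this enters all 3 values. Within the 2 kinds of library the no class difference was -2.12 and 1.57 points, with opposite signs. The larger values are therefore not a stronger sign of a genotype difference.

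The proportions among the members, in contrast, separated the genotypes for 3 genes. mt-Nd2 was at 5.79, 6.07, 5.97 and 6.01% of the members' UMIs in Tsc2 wt/wt and at 5.17, 5.28, 5.06 and 5.00% in Tsc2 mut/mut. Every Tsc2 mut/mut mouse was lower than every Tsc2 wt/wt mouse. The means were 5.96% ± 0.120 and 5.13% ± 0.121 (difference -0.829 points, exact permutation p = 0.0286, unadjusted over 10 members). Within the 2 kinds of library the difference was -0.987 and -0.646 points.

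mt-Co3, the most abundant member, went the other way. It was at 18.6, 19.0, 18.1 and 18.2% in Tsc2 wt/wt and at 20.6, 19.1, 21.0 and 20.9% in Tsc2 mut/mut. The groups did not overlap, although mut/mut 2 lay just above wt/wt 2. The means were 18.5% ± 0.382 and 20.4% ± 0.896 (1.91 points, exact permutation p = 0.0286), and the difference was 1.85 and 0.760 points within the 2 kinds of library.

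mt-Nd4 was at 7.05, 7.31, 7.27 and 7.17% in Tsc2 wt/wt and at 6.88, 6.98, 6.58 and 6.37% in Tsc2 mut/mut. It was lower in every Tsc2 mut/mut mouse, again with mut/mut 2 nearest to the controls. The means were 7.20% ± 0.119 and 6.70% ± 0.281 (-0.499 points, exact permutation p = 0.0286), and within the kinds of library the difference was -0.706 and -0.179 points.

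Thus 1 member was higher, 2 were lower and 7 overlapped. Of nuclear genes of at least 100 CPM, taken as a share of non-mitochondrial UMIs, 2.49% did not overlap between the genotypes, 1.28% with higher and 1.21% with lower values in Tsc2 mut/mut. Among genes of at least 1 CPM it was 2.53%, with 1.05% higher and 1.47% lower. The members' proportions sum to a whole, so they cannot move independently of each other, and the counts of members and of nuclear genes are on different scales. mt-Cytb, mt-Co1 and mt-Co2 overlapped (exact permutation p = 0.0857 for each), as did mt-Atp6 (exact p = 0.143). Within the 2 kinds of library mt-Cytb differed by -0.737 and -0.0838 points, mt-Co2 by -0.843 and -0.0242, and mt-Atp6 by -1.27 and 0.456, with opposite signs. mt-Co1 was at 15.8, 14.8, 14.8 and 15.5% and at 17.2, 15.2, 17.1 and 16.6%, with only mut/mut 2 inside the Tsc2 wt/wt range, and its difference was 2.22 points in one kind of library and -0.173 points in the other. Without mut/mut 2, 7 of 10 members did not overlap, with mt-Cytb, mt-Co1, mt-Co2 and mt-Atp6 added, where 3.76% of nuclear genes of at least 100 CPM did not overlap. With these mice the 3 Tsc2 mut/mut libraries are all of 1 kind, and genotype and kind of library cannot be told apart for the added members. With a minimum of 1000 genes 1 member did not overlap, since mt-Nd4 and mt-Co3 then overlapped (-0.31 and 2.36 points). The share of nuclear genes without overlap at that minimum is not given here, so this count stands without a background.

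These differences were then followed from set to set. At 100 to under 200 genes mt-Nd2 was at 6.23, 6.34, 6.50 and 6.48% in Tsc2 wt/wt and 5.40, 5.70, 5.26 and 5.33% in Tsc2 mut/mut, a difference of -0.963 points, larger than over kept barcodes. In microglia it was at 6.47, 6.16, 6.50 and 5.95% and at 5.36, 5.35, 5.18 and 4.59%, and in oligodendrocytes at 5.41, 5.87, 5.38 and 5.90% and at 5.00, 5.05, 4.87 and 4.46%. In each of these sets, in NSC/astrocyte barcodes (5.88 against 5.09% on average), in no class (5.94 against 5.12%) and at 2000 or more genes (6.44 against 5.39%), the genotypes did not overlap for mt-Nd2. They overlapped at 1000 to under 2000 genes, where all 10 members did (mt-Nd2, exact permutation p = 0.0571). For the range of 2000 or more genes, no share of nuclear genes without overlap is given here. The separations of mt-Nd2 and mt-Nd4 in that range therefore stand without a background.

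The share of nuclear genes of at least 100 CPM that did not overlap was 10.4% in no class, 12.5% at 100 to under 200 genes, 2.22% in NSC/astrocyte barcodes, 4.37% in microglia and 6.81% in oligodendrocytes. The background was thus several times higher in no class and at 100 to under 200 genes than over kept barcodes.

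mt-Co3 did not overlap in no class, at 100 to under 200 genes, in microglia and in oligodendrocytes, and overlapped in NSC/astrocyte barcodes (exact permutation p = 0.0571), where mut/mut 2 had 19.1% and wt/wt 2 had 19.2%. It also overlapped at 2000 or more genes (exact permutation p = 0.0857), with differences of 2.48 and -0.201 points within the 2 kinds of library. mt-Nd4 did not overlap in no class, at 100 to under 200 genes, in NSC/astrocyte barcodes and at 2000 or more genes, and overlapped in microglia and oligodendrocytes. Oligodendrocytes also held lower mt-Cytb (10.6 against 11.7%) and mt-Co2 (13.3 against 14.1%) in Tsc2 mut/mut without overlap, so that 1 member was higher and 3 were lower there. The gaps were narrow: the highest Tsc2 mut/mut and lowest Tsc2 wt/wt values were 11.19 and 11.36% for mt-Cytb and 13.71 and 13.76% for mt-Co2. The widest 95% Wilson half-width of a proportion in 1 mouse was 1.17 points in oligodendrocytes and 1.16 in microglia, for counting error only. The sets come from the same 8 libraries and are not independent tests of the difference. Of the 5 members with runs of A, mt-Nd2 and mt-Nd4 were lower in Tsc2 mut/mut, while mt-Nd1, mt-Nd5 and mt-Co1 overlapped.

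**Figure D5:**
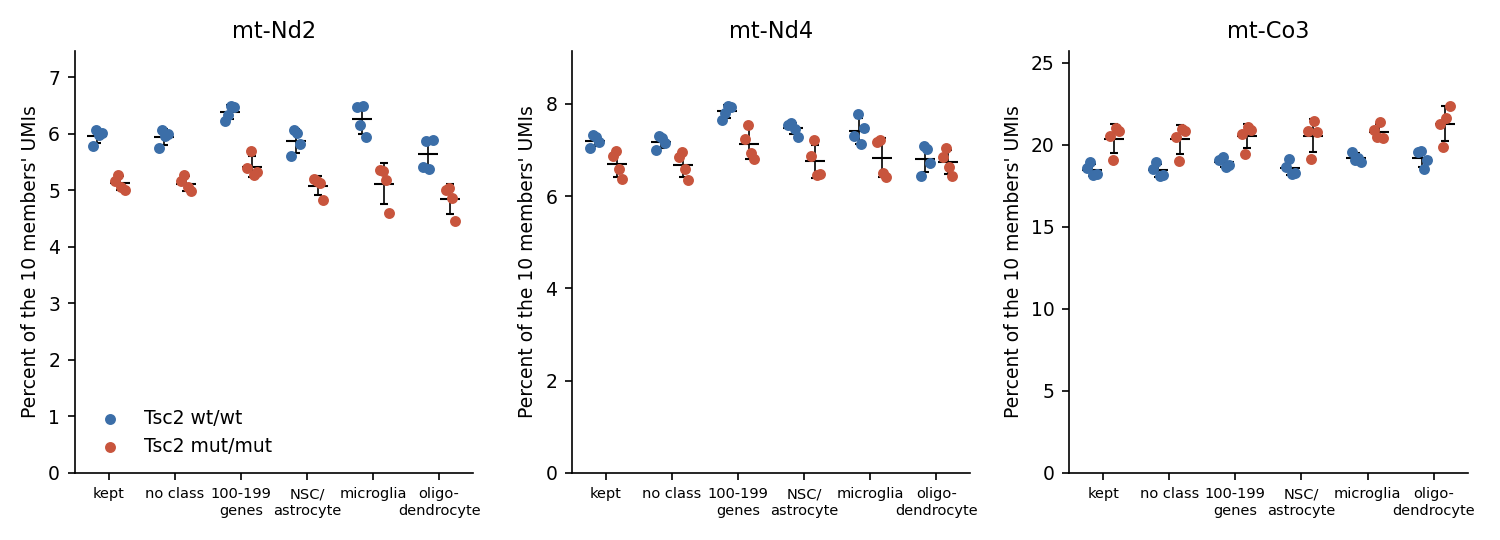
Percentage of the members' UMIs taken by mt-Nd2, mt-Nd4 and mt-Co3 (vertical axes, from 0) in 6 sets of barcodes, with 1 point per mouse and the mean and SD of each genotype. mt-Nd2 is lower in every Tsc2 mut/mut mouse in all 6 sets, while mt-Nd4 overlaps in microglia and oligodendrocytes and mt-Co3 in NSC/astrocyte barcodes.

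As levels against all genes, no member passed the test between the genotypes with edgeR. UMIs were summed per mouse and tested by a quasi-likelihood fit in edgeR, with p-values adjusted after Benjamini and Hochberg over all genes tested. Over kept barcodes 0 of 10 members passed, where 0.0153% of 13060 genes did, and 0 members had an unadjusted p under 0.05, where 2.58% of genes did. The members' median log2 fold change (Tsc2 mut/mut over Tsc2 wt/wt) was 0.04, beside 0.00 for all genes, with 6 values above 0 and 4 below. mt-Nd2 had a log2 fold change of -0.16 (SE 0.232) and mt-Co3 one of 0.19 (SE 0.219). DESeq2 also called 0 members. The shares of genes given here and in the next paragraph are those of edgeR. For DESeq2 a share is given only in oligodendrocytes, so its other counts stand without a background.

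In no class 0 members passed (background 0.0759%), and mt-Nd2 alone had an unadjusted p under 0.05 (log2 fold change -0.38, SE 0.153, edgeR adjusted p = 0.495, with 9.11% of genes under 0.05). The members' median was -0.19 and all 10 values were below 0. In NSC/astrocyte barcodes (0.0146%) and in microglia (0.0429%) 0 members passed with edgeR or DESeq2 and 0 had an unadjusted p under 0.05 (2.33% and 6.82% of genes did), and the median was 0.39 in each, with all 10 values above 0. At 100 to under 200 genes 0 members passed by either tool (0.227% of genes with edgeR) and 0 were under 0.05, where 7.72% of genes were, with a median of 0.02. The median was -0.14 in NSC/astrocyte barcodes without mut/mut 4 and -0.09 over kept barcodes without mut/mut 2. In these 2 sets of barcodes the direction therefore did not hold for every set of mice. Without each mouse in turn the median ran from -0.33 to -0.10 in no class and from 0.16 to 1.00 in microglia. With a minimum of 1000 genes it was -0.0198 in microglia. The members share the mitochondrial fraction of a library, and 10 values of 1 sign are not 10 observations.

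In oligodendrocytes 0 members passed with edgeR, as did 0 of 2749 genes (0%), but 9 of 10 members, all except mt-Nd2, had an unadjusted p under 0.05, where 9.46% of genes did. The median log2 fold change was 0.54, beside -0.00 over all genes, and all 10 values were above 0. mt-Co3 had a log2 fold change of 0.71 (SE 0.192, edgeR adjusted p = 0.144) and mt-Co1 one of 0.63 (SE 0.183, edgeR adjusted p = 0.177), while mt-Nd2 had 0.33 (SE 0.184, edgeR adjusted p = 0.612). DESeq2 called mt-Co3 (0.59, DESeq2 adjusted p = 0.0254) and mt-Co1 (0.52, DESeq2 adjusted p = 0.0420), where it called 2.89% of the 762 genes to which it gave an adjusted p. edgeR called the same pair without mut/mut 1 (0.88 and 0.79, edgeR adjusted p = 0.0479 for both). The share of all genes called in that fit is not given here, so this call stands without a background. It comes from the same libraries and is not a second test.

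Of the nuclear genes of the respiratory chain edgeR called 0 between genotypes in the 6 sets (with 0 to 8 genes of a complex at an unadjusted p under 0.05 in a set), and DESeq2 called 1, Cox8a of complex IV in oligodendrocytes (log2 fold change 0.93, DESeq2 adjusted p = 0.0181). There DESeq2 also called Malat1, one of the long noncoding RNAs kept in the nucleus, as lower (-0.85, DESeq2 adjusted p = 0.0181), and it gave an adjusted p to 7 of 10 complex IV genes and to 1 of 36 complex I genes. In oligodendrocytes all 10 tested genes of complex IV were above 0, with a median log2 fold change of 0.69 and 8 at an unadjusted p under 0.05, as were 20 of 21 of complex I (0.44), 6 of 6 of complex III (0.54) and 13 of 14 of ATP synthase (0.56). In microglia the medians were 0.85 for 10 of 10 complex IV genes and 0.47 for 17 of 17 complex I genes above 0. In NSC/astrocyte barcodes complex I had 17 values above and 19 below 0 (median -0.07), and in no class 16 above and 20 below (median -0.03). Complex IV had 9 of 10 above 0 in NSC/astrocyte barcodes (0.39) and 7 of 10 in no class (0.05). ATP synthase had 11 of 15 (0.16) and 8 of 15 (0.01) there, and complex III 5 of 9 in each. Over kept barcodes 34 of 36 complex I and 8 of 9 complex III genes were above 0 (0.26 and 0.38). All 10 of complex IV (0.32) and all 15 of ATP synthase (0.32) were above 0 there. The 70 nuclear genes made up 4.44 to 4.77% of non-mitochondrial UMIs over kept barcodes in Tsc2 wt/wt. In Tsc2 mut/mut they made up 4.07 to 7.17%, highest in mut/mut 4. Their summed share in oligodendrocytes was 0.660, 0.992, 0.758 and 0.557% in Tsc2 wt/wt and 0.929, 1.13, 1.27 and 2.20% in Tsc2 mut/mut. It was highest in mut/mut 4, whose class held 18 barcodes. The members' share in oligodendrocytes was highest in the same library.

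Of the 3 genes outside the members, mt-Nd6 had the largest change over kept barcodes, a log2 fold change of 0.56 (unadjusted p = 0.0278 and adjusted p = 1.00 with edgeR). Its level was 0.0754, 0.0706, 0.0682 and 0.0682% of the members' UMIs in Tsc2 wt/wt and 0.109, 0.0733, 0.110 and 0.114% in Tsc2 mut/mut. The 3 high values are the Tsc2 mut/mut libraries with few barcodes under 100 genes, and mut/mut 2 lay within the Tsc2 wt/wt range. mt-Nd4l and mt-Atp8 had log2 fold changes of 0.09 and 0.10.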

How the data were processed

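The authors made 10x Genomics 3′ (v3.1) libraries, used Cell Ranger 7.0.1 with the GRCm38 reference and deposited, for each library, raw counts of UMIs per gene and barcode, without normalization or cell type labels. Nothing else was used. The submitters' processing notes also name Seurat 4 for steps not used here.

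Barcodes with at least 300 detected genes were kept, doublets were not called, and classes were gated as described. UMIs were summed per mouse for edgeR 4.0.16 (TMM, filterByExpr, robust fit, threshold 0.05) and DESeq2 1.42.0 in R 4.3.3. Shares and proportions were compared by exact permutation with numpy 2.4.6 in Python 3.11.15, and called different where the groups did not overlap. The Poisson tail of the gate came from scipy 1.17.1. Scripts were tested on simulated data. The members, marker lists and gene lists were chosen with earlier results of these data known. All members, the other mitochondrial protein genes, listed genes past the threshold and the 5 genes most and least alike were named. Total depth was 11182335 to 36773832 UMIs per library. The widest 95% Wilson half-width of a mouse's member share was 0.0500 points over kept barcodes and 0.466 in microglia, which cover counting error only. Separate mice were the replicates, with 1 library each. The alternatives were other minimums of genes, gates, normalizations and tests, each mouse left out, barcodes shared between libraries left out and a replicate block. The kind of library as a term, each mouse left out for the class proportions and other minimums for the levels were chosen after seeing the data.

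Sequences and positions come from GRCm38 transcripts and GENCODE M21.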

Additional observations from a re-analysis of the deposited data

Results flagged for a closer look

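Among 42 groups of 4 mice, 2 held a value whose gap to its neighbour was over 0.829 of the group's range, a limit that chance passes in about 1 group in 20, or 2.1 of 42. In barcodes with 200 to under 300 genes, wt/wt 2 had a member share of 46.9%, below the other Tsc2 wt/wt mice (gap 0.899 of the range). At 1000 to under 2000 genes, mut/mut 2 had a share of 21.8%, above the other Tsc2 mut/mut mice (0.874). In each case the mouse is the one whose number of barcodes under 100 genes sets it apart from the other mice of its genotype.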

How the results depend on the processing

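Depth, the number of mice and the kind of library limit these results: leaving out 1 mouse, no permutation test can go below 0.0286 over 4 against 3. No member passed edgeR's test in any set under any alternative, except the pair called in oligodendrocytes by DESeq2 (2 members) and in the fits without 1 mouse (0 to 2). The lower share in gated classes and at 1000 to under 2000 genes kept its direction under every alternative run. With a minimum of 1000 genes the microglia class differed from no class by -14.0 points, lower in 5 of 8 mice (exact permutation p = 0.0625). Each member's mean level moved by less than its SD over mice, except that mt-Nd5 reached 1.13% of the members' UMIs with 1000 genes. Ranks were not compared under the alternatives. At 500 to under 1000 genes mt-Nd1 (6.75%) was above mt-Nd4 (6.69%), the reverse of the order over kept barcodes. The causes were not tested.

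Signs of fold changes and of shares turned under several alternatives, with the causes not tested. With a minimum of 500 genes the median log2 fold change over kept barcodes was -0.43, and with 1000 genes -0.10. mt-Co3 over kept barcodes was at -0.29 with 500 genes, and in no class at 0.0223 with 200 genes and at 0.0844 with the kind of library as a term, chosen after seeing the data. In NSC/astrocyte barcodes a minimum of 1000 genes gave a median of -0.32, mt-Nd2 at -0.44 and mt-Co3 at -0.15, while mt-Nd2 was at -0.0476 with 500 genes and -0.0588 with a gate of p under 1e-10. In microglia 1000 genes gave a median of -0.0198 and mt-Nd2 at -0.21, and 500 genes mt-Nd2 at -0.0901. With genes counted without the mitochondrial ones the median at 100 to under 200 genes was -0.00806. The member share over kept barcodes differed by 0.959 points with a minimum of 200 genes. As a median over barcodes, it differed by -2.89 points in NSC/astrocyte barcodes, 9.65 in microglia (groups separate) and 0.375 at 100 to under 200 genes. With 1000 genes 1 member did not overlap in proportion, with mt-Nd4 at -0.31 and mt-Co3 at 2.36 points, and no share of nuclear genes is given beside it.

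Without each mouse in turn, the share differed by -3.00 to 0.544 points over kept barcodes, -0.921 to 6.44 in NSC/astrocyte, 2.57 to 7.96 in microglia, 3.41 to 5.73 in oligodendrocytes and -4.68 to -1.89 in no class. By range it was -0.692 to -0.0910 at 100 to under 200 genes, -3.44 to -1.50 at 200 to under 300, -4.52 to -1.98 at 300 to under 500, -12.0 to -6.88 at 500 to under 1000, -9.78 to -4.96 at 1000 to under 2000 and -0.0694 to 0.805 at 2000 or more. The members not overlapping in proportion were 3 to 7, with mt-Nd3 from -0.0481 to 0.0729 and mt-Nd5 from -0.00527 to 0.0244 points, and mt-Nd5 from -0.00027 to 0.0261 points between NSC/astrocyte and no class. The median log2 fold change ran from -0.0921 to 0.19 over kept barcodes, -0.14 to 0.68 in NSC/astrocyte and -0.0282 to 0.0677 at 100 to under 200 genes, mt-Co3 in no class from -0.12 to 0.0456, and mt-Nd2 from -0.30 to 0.48 in NSC/astrocyte and -0.10 to 0.72 in microglia. In no class the median ran from -0.33 to -0.0967, in microglia from 0.16 to 1.00 and in oligodendrocytes from 0.41 to 0.71.

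The replicate numbers did not pair the mice: deviations of same-numbered mice correlated at -0.120, 0.0504, -0.0168 and 0.0593 over 11127 genes, and no mouse correlated best with its own number. With the number as a replicate block, 0 members were called in each set, and the share of all genes called in these fits is not given here. The median log2 fold change over kept barcodes was then -0.00145 and mt-Nd2 in NSC/astrocyte barcodes was at -0.0311. The member share over kept barcodes differed by -0.812 points, which equals the main value by construction and so checks nothing.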
